A study of Mus musculus with 8 samples.

Results

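The Ifit genes encode interferon-induced proteins with tetratricopeptide repeats, and 5 of the 31406 genes in the count table were taken as this family: Ifit1, Ifit1bl1, Ifit2, Ifit3 and Ifit3b. They were chosen by gene symbol with earlier results of the same comparison in view, so their differences between the groups are given as a description and no test of a member is used as support. A sixth gene of the same cluster, Ifit1bl2, was not on the list and is described as a neighbour.

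The counts come from 8 libraries of primary microglia cultured from the striatum of newborn wild-type C57/BL6 mouse pups and kept in culture for 15 days. All 8 cultures were activated for 48 h with LPS (0.01% v/v), a bacterial agonist of Toll-like receptor 4, and interferon-γ (0.002% v/v), which the methods of the study list as the human protein. By their titles, 4 libraries were from activated cells given SCH 58261, an antagonist of the adenosine A2A receptor (A2A antagonist group). The other 4 were from activated cells given SCH 58261 together with 200 nM 2-Cl-IB-MECA, an agonist of the adenosine A3 receptor (dual group). In both groups the ligands were added 24, 32 and 40 h after activation began. Both groups therefore hold activated cells with the A2A receptor blocked, and what separates them is the A3 receptor agonist. The treatment entry of the labels reads the other way, with 2-Cl-IB-MECA written for the libraries titled SCH 58261 alone and missing from those titled with both. Each direction below therefore rests on the titles and on the names of the count columns, which give the same groups. Nothing in the labels says that replicates came from separate litters or culture preparations, so the error given here is the spread between libraries and may be partly technical.

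The library totals were 38427491 to 45878639 counts in the A2A antagonist group and 32630602 to 45544451 in the dual group. The labelled cell type was checked against marker lists by the summed level per kilobase of exon. Of 11 microglia markers 10 were in the table, all above 0, and summed to 688 to 786 CPM per kilobase with the antagonist and to 647 to 679.6 with both ligands. P2ry12, a marker of resting microglia, was low at 1.66 ± 0.215 CPM and 2.00 ± 0.461 CPM (SD, n = 4). The 10 astrocyte markers summed to more, 1400.4 to 1464 CPM per kilobase against 1416 to 1488, the 6 fibroblast markers to 282 to 316 against 284 to 354, and the 7 oligodendrocyte markers to 193 to 207 against 174 to 192. The lists differ in the number and abundance of their genes, so these sums do not measure the share of each cell type. The methods of the study report that nearly all cells carried the microglial label CD11b. The sums of the microglia and oligodendrocyte markers did not overlap between the groups and were lower in the dual group, while those of the astrocyte and fibroblast markers overlapped. The oligodendrocyte sums only just stood apart, at 192.54 against 192.23. The complement gene C1qa gave the largest part of the microglia sum, 458 ± 28.5 CPM per kilobase (SD, n = 4) against 387 ± 11.1. By fitted fold change 6 of the 10 microglia markers were lower and 4 higher. Summed as CPM without division by length, the microglia markers did overlap, at 1091 to 1180 against 1053 to 1107 CPM. In whole cultures, fewer cells of a type cannot be told apart from less RNA per cell, and the part of these cell types in the Ifit values was not tested.

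Cells that sense viral or bacterial products make type I interferon, which binds its receptor (Ifnar1 and Ifnar2) and, through the kinases Jak1 and Tyk2, activates a transcription factor complex that holds Stat2 and Irf9. This complex binds the interferon-stimulated response element (ISRE) in front of target genes, and the Ifit genes are among its strongest targets. Their proteins bind foreign RNA, such as RNA whose cap lacks the methyl groups of the host, and interfere with its translation. In the brain, microglia are among the cells in which interferon or LPS induces them.

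The 5 genes lie together on chromosome 19 (GRCm38/mm10) within 99.3 kb. From the proximal end these are Ifit2 (ENSMUSG00000045932, chr19:34550694-34576419, + strand), Ifit3 (ENSMUSG00000074896, chr19:34583531-34588731, + strand), Ifit1bl1 (ENSMUSG00000079339, chr19:34592888-34601968, - strand), Ifit3b (ENSMUSG00000062488, chr19:34607970-34613401, + strand) and Ifit1 (ENSMUSG00000034459, chr19:34640871-34650009, + strand). All 5 are annotated as protein coding, and no exon of theirs overlaps an exon of another gene.

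The sequences in front of the genes were compared for the letters of the element that the interferon-activated complex binds, which not all members held. The promoter windows, from RefSeq on GRCm38.p6, cover 250 bases before and 50 bases after each annotated start site and were found for all 5 members. They were searched on both strands for the ISRE letters GAAANNGAAA and for the letters TTCNNNGAA of the interferon-γ activated site (GAS), motifs whose letters do not overlap in any window shown. In the stretches below, which end before the transcribed part of the gene, 5′ to 3′ on the strand of the gene, capitals mark the ISRE letters.
Ifit3, chr19:34583353-34583436, + strand: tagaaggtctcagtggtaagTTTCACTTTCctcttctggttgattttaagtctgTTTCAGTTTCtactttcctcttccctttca
Ifit3b, chr19:34607749-34607832, + strand: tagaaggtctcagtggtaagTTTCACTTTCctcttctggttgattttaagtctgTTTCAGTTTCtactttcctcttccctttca
Ifit1, chr19:34640765-34640833, + strand: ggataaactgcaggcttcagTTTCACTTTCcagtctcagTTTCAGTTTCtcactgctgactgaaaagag
Ifit1bl1, chr19:34602043-34602092, - strand: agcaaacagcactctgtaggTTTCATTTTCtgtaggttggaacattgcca
Ifit3, Ifit3b and Ifit1 each held the ISRE letters 2 times in the window, with the same 2 ten-letter words, TTTCACTTTC and TTTCAGTTTC, in the same order. The stretch shown is letter for letter the same in Ifit3 and Ifit3b, where it lies at -176 to -93 and at -208 to -125 from the start site. Ifit1bl1 held the letters 1 time in each of its 2 windows. In Ifit2 the ISRE letters were not in either of its 2 windows, and 1 GAS match lay at -241 to -233 from the upstream start. Of all 32851 windows of this length, 3.44% held the ISRE letters, 0.225% held them 2 or more times and 8.3% held the GAS letters. A match is a run of letters and not a measured binding site.

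**Figure D1:**
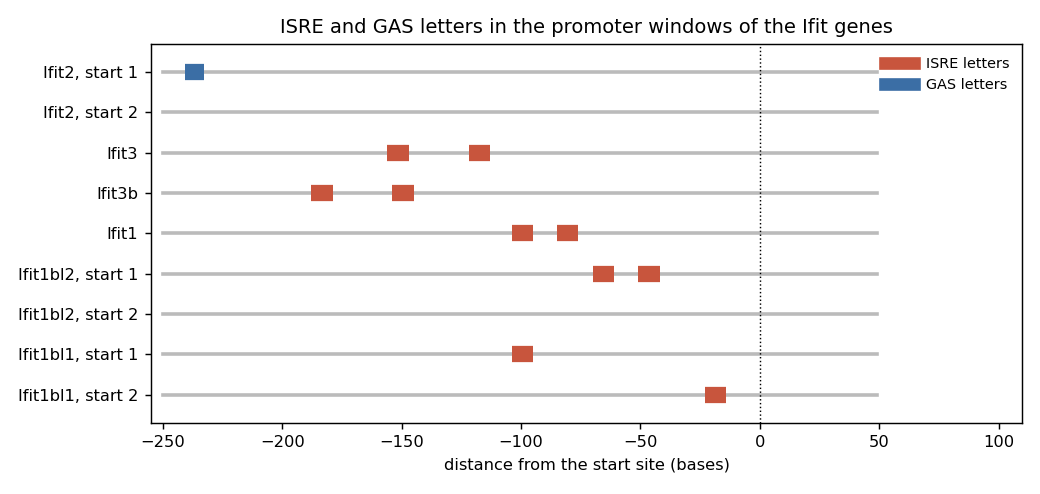
Positions of the ISRE letters (red) and GAS letters (blue) in the RefSeq promoter windows of the 5 Ifit genes and Ifit1bl2. The x axis is the distance from the start site in bases on the strand of the gene, and each grey line is 1 window. Ifit3, Ifit3b and Ifit1 each have 2 red marks, and the windows of Ifit2 have none.

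Ifit3 and Ifit3b are near-identical copies. Their coding sequences, of 1212 bases each, differ at 11 bases (99.1% identity), and the longest run that their transcripts share is 329 bases. The 60 coding bases richest in differences, 229 to 288 from the start codon, are shown with the 4 differing bases in capitals.
Ifit3: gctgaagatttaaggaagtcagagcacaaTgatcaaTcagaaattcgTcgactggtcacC
Ifit3b: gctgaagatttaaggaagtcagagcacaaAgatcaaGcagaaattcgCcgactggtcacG
Of the 31-base words in the transcripts of Ifit3, 61.8% also occur in Ifit3b, and 55.3% of those of Ifit3b occur in other genes, nearly all in Ifit3. Their separate counts are therefore uncertain, because a read from the shared part fits both genes and how such reads were counted is not given in the sources used here. The share was 19.3% for Ifit1bl1 and 10.8% for Ifit1, in both mostly with Ifit1bl2, and no such word of Ifit2 was found in another gene. Outside the Ifit3 pair, the coding sequences of the members were 57.1% to 76.0% identical, the highest being Ifit1 with Ifit1bl1.

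Levels of different genes were compared as TMM-scaled CPM (counts per 1000000 counts, scaled between libraries) per kilobase of exon. In each of the 8 libraries the order was Ifit3, Ifit1, Ifit3b, Ifit2 and Ifit1bl1, and no neighbours in this order overlapped in range within either group. With the antagonist alone, Ifit3 was at 219 ± 9.48 CPM per kilobase (SD, n = 4), Ifit1 at 133 ± 2.38, Ifit3b at 101 ± 4.90, Ifit2 at 31.5 ± 2.79 and Ifit1bl1 at 0.957 ± 0.186. Ifit3, Ifit1 and Ifit3b were thus among the more abundant transcripts of these cultures. Among 14858 protein-coding genes that passed the low-count filter, Ifit3 ranked at place 137, Ifit1 at 267, Ifit3b at 372, Ifit2 at 1591 and Ifit1bl1 at 11951 by this level. The median of those genes was 5.55 CPM per kilobase, so Ifit3 stood 39.4 times above it and Ifit1bl1 at 0.172 of it. The distance between neighbours was smallest for Ifit1 over Ifit3b, with a ratio of 1.33 ± 0.0454 (SD, n = 4) with the antagonist and 1.43 ± 0.0640 with both ligands. The largest was Ifit2 over Ifit1bl1, at 33.5 ± 4.82 and 47.9 ± 13.0. Because of the shared sequence of the pair, the places of Ifit3 and Ifit3b depend on how shared reads were counted.

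**Figure D2:**
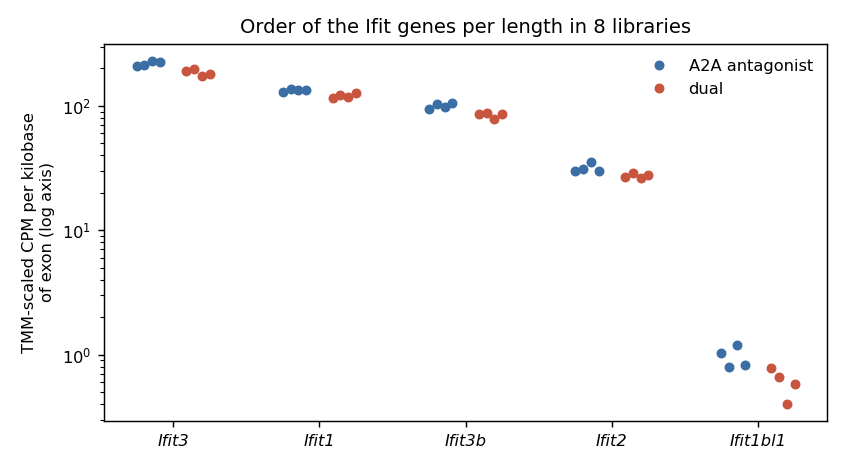
Level of each Ifit gene in the 8 libraries, as TMM-scaled CPM per kilobase of exon on a log axis, with 1 point per library. The order from Ifit3 down to Ifit1bl1 is the same in both groups, and Ifit1bl1 lies below 1.2 in every library.

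Within this order, each of the 5 genes was lower in the dual group, and in none of them did the 2 groups overlap. The summed level of the family was 1062 ± 32.4 CPM (SD, n = 4) in the A2A antagonist group against 923 ± 31.6 CPM in the dual group, with library ranges of 1016 to 1092 and 882 to 956. Of all 18756 genes tested, 4.06% had groups that did not overlap and were lower in the dual group, and 3.35% had such groups in the other direction. The log2 fold changes ran from -0.14 to -0.68 with a median of -0.23, where the median of all genes tested was 0.0038 and 48.5% were below 0. The edgeR quasi-likelihood test with Benjamini-Hochberg adjustment called 2 members at an adjusted p-value under 0.05, Ifit3 and Ifit3b, both lower, and over all genes it called 0.208% in either direction, 0.16% as lower and 0.048% as higher. No member passed both this threshold and a 1.5-fold change, as 0.00533% of all genes did. All 5 had an unadjusted p-value under 0.05, as did 12.8% of all genes and 6.81% in the lower direction. These counts use the comparison from which the family was chosen. The count called was 4 in DESeq2 and 5 without the low-count filter, and it was 0 without antagonist replicate 2, 3 or 4 or without dual replicate 3. The number called over all genes moved too. It was 39 in the main fit, 381 in DESeq2, 366 without the filter and 0 to 172 with 1 library left out.

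**Figure D3:**
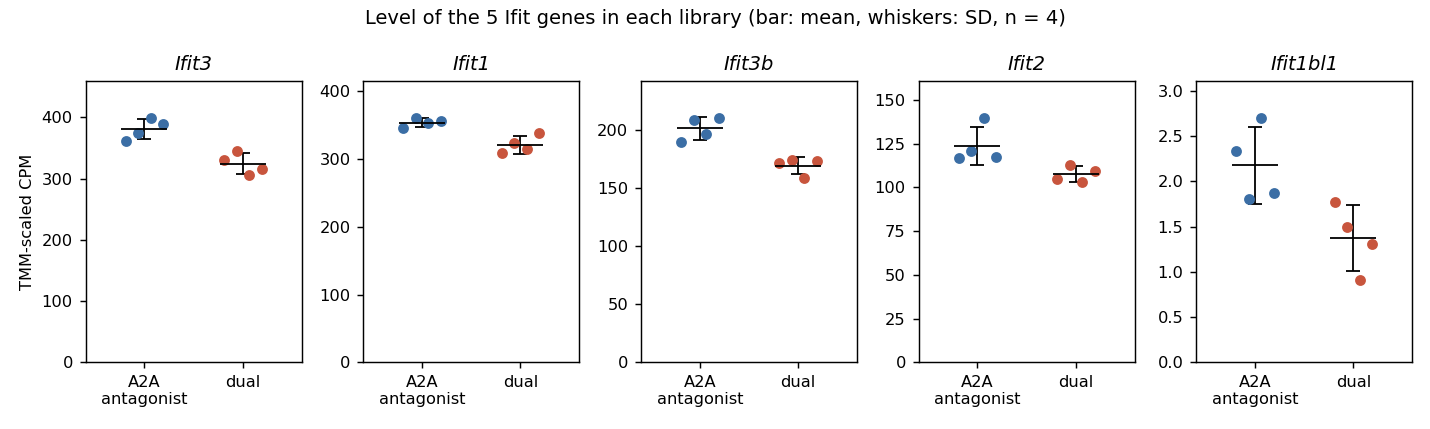
TMM-scaled CPM of each Ifit gene in each library (points), with the mean (long bar) and SD (whiskers, n = 4), for the A2A antagonist group (blue) and the dual group (red). Each axis starts at 0, and in each panel the lowest blue point lies above the highest red point, by 17.4 CPM for Ifit3 and by 0.0253 CPM for Ifit1bl1.

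Ifit1 encodes the member best known for binding RNA with an incompletely methylated cap. It had 345, 361, 353 and 355 CPM in A2A antagonist replicates 1 to 4 and 309, 323, 314 and 338 CPM in dual replicates 1 to 4. The lowest antagonist library lay 7.57 CPM above the highest dual library, and the antagonist libraries were close together, with a coefficient of variation of 1.79% against 4.00% in the dual group. The mean was 354 ± 6.33 CPM (SD, n = 4) against 321 ± 12.8 CPM, 9.3% lower, with a log2 fold change of -0.14 (SE 0.03). Of the 5 members this was the smallest difference.

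Ifit2, whose protein binds AU-rich RNA and can form complexes with other members of the family, had 117, 121, 139.8 and 117 CPM with the antagonist. With both ligands it had 105, 113, 103 and 109 CPM. Replicate 3 of the antagonist group was the highest and the other 3 lay within 5 CPM of each other, and the gap between the groups was 3.69 CPM. The mean was 124 ± 10.96 CPM (SD, n = 4) against 108 ± 4.47 CPM, 13.0% lower, and the log2 fold change was -0.20 (SE 0.05). Without that replicate it was -0.14.

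Ifit3 encodes a partner of Ifit1 and Ifit2 in the complexes of the family. Its levels were 362, 374, 399.5 and 389.9 CPM with the antagonist and 331, 345, 306 and 316 CPM with both ligands. The groups stood 17.4 CPM apart, the widest gap of the family in CPM, though Ifit3 also had the highest level. For Ifit3b, at a lower level, the gap was 15.9 CPM. The mean of Ifit3 went from 381 ± 16.6 CPM (SD, n = 4) to 324 ± 17.2 CPM, 14.9% lower, with a log2 fold change of -0.23 (SE 0.04).

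Ifit3b, the near-identical copy, had 189.5, 208, 197 and 210.3 CPM with the antagonist and 171, 174, 158 and 173 CPM with both ligands. Dual replicate 3 was the lowest library and the other 3 of its group were within 3 CPM. The mean was 201 ± 9.81 CPM (SD, n = 4) against 169 ± 7.29 CPM, 16.0% lower, with a log2 fold change of -0.25 (SE 0.04). Since reads may be split between the copies, their sum was also taken, and it was 552, 582, 596 and 600.2 CPM with the antagonist and 503, 519, 464 and 489 CPM with both ligands. The summed pair did not overlap between the groups either, at 583 ± 21.9 CPM (SD, n = 4) against 493 ± 23.1 CPM. The ratio of Ifit3b to Ifit3 counts was 0.528 ± 0.0275 and 0.521 ± 0.0185, a difference smaller than the spread between libraries.

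Ifit1bl1, an Ifit1-like gene on the opposite strand, was close to the low end of what was counted. Its libraries held 90, 82, 113 and 85 counts without the agonist and 58, 57, 42 and 58 with it, or 2.33, 1.80, 2.70 and 1.87 CPM against 1.78, 1.497, 0.914 and 1.31 CPM. The groups only just stood apart, by 0.0253 CPM. The mean was 2.18 ± 0.422 CPM (SD, n = 4) against 1.37 ± 0.362 CPM, 36.9% lower, with a log2 fold change of -0.68 (SE 0.20). This was the largest fold change of the family and the one past 1.5-fold, and also the least certain. Counting error alone gives a coefficient of variation of 11.7% at its mean count, where it gives 0.825% to 1.44% for the other members, and the value went from -0.52 to -0.82 when single libraries were left out.

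The library ranges of each member's share of the family counts overlapped between the groups. Ifit3 gave 35.9% ± 0.671 (SD, n = 4) of the family's counts with the antagonist and 35.1% ± 1.17 with both ligands, Ifit1 gave 33.3% ± 0.765 and 34.8% ± 1.24, and Ifit3b gave 18.9% ± 0.754 and 18.3% ± 0.319. The share of Ifit2 was 11.6% ± 0.820 and 11.6% ± 0.168, and that of Ifit1bl1 was 0.205% ± 0.0394 and 0.148% ± 0.0374. Within the groups the members did not all deviate together. Over the 8 libraries, with the group means removed, the log2 levels correlated at 0.64 for Ifit2 with Ifit3, 0.61 for Ifit3 with Ifit1bl1, 0.56 for Ifit3 with Ifit3b and 0.53 for Ifit3b with Ifit1, but at 0.03 for Ifit3 with Ifit1 and -0.22 for Ifit1bl1 with Ifit1. These points share their libraries and depth, and the Ifit3 pair also shares reads.

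The genes with within-group deviations most like the mean of the family were sought among 13711 candidates. They were Bpnt1, which encodes a nucleotidase (r = 0.956 over 8 libraries), Reps1, an endocytosis adaptor (0.954), the transcript 4930556M19Rik (0.953), N4bp1, a regulator of inflammatory signalling (0.949), and Smpd4, a sphingomyelinase (0.943). Each is the top of a ranking of many genes over few libraries. Their own log2 fold changes between the groups ran from -0.07 to 0.07, none was called, and none of these 5 is in the interferon lists.

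To see how far along the chromosome the difference went, the 8 other genes of the table within 250 kb of a member were examined, of which 7 passed the low-count filter and 0 were called by edgeR. DESeq2 also called 0. Of these 7, 3 were lower in the dual group and 2 had an unadjusted p-value under 0.05. The nearer was Ifit1bl2 (ENSMUSG00000067297, chr19:34617049-34640743, - strand), a further Ifit1-like gene. Its levels were 11.7, 14.4, 14.8 and 14.0 CPM with the antagonist and 12.4, 13.1, 12.1 and 11.1 CPM with both ligands, so the groups overlapped, with a log2 fold change of -0.18 (SE 0.08, adjusted p = 0.343). It starts 128 bases from Ifit1 and runs the other way, so the stretch with the 2 ISRE words shown for Ifit1 also lies at -90 to -22 from the start of Ifit1bl2. The other was Pank1, a pantothenate kinase gene, at -0.14 (SE 0.06, adjusted p = 0.355).

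The remaining neighbours had small or uncertain differences. Lipa, the lysosomal acid lipase gene next to Ifit2, had a log2 fold change of 0.07 (SE 0.04, adjusted p = 0.438). Ch25h, which encodes cholesterol 25-hydroxylase and is itself known as an interferon target, had 194 ± 6.57 CPM (SD, n = 4) against 195 ± 9.10 CPM, a log2 fold change of 0.01 (SE 0.04, adjusted p = 0.931). The death receptor gene Fas was at 0.02 (SE 0.04, adjusted p = 0.883), the noncoding Gm26902 at -0.10 (SE 0.16, adjusted p = 0.848) and the transporter gene Slc16a12 at 0.13 (SE 0.24, adjusted p = 0.876). The microRNA gene Mir107 had at most 1 count in a library and was not tested.

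**Figure D4:**
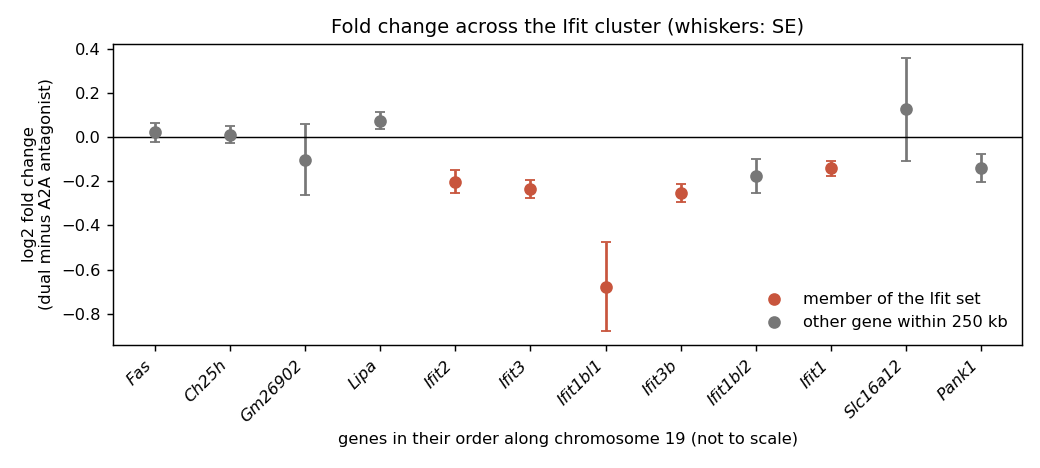
Log2 fold change (dual minus A2A antagonist) of the genes within 250 kb of the Ifit cluster, in their order along the chromosome and not to scale. Points are fitted values and whiskers are 1 SE, with Ifit members in red and other genes in grey. The members lie between -0.14 and -0.68, and Ifit1bl2 lies at -0.18.

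The interferon pathway around the family was described with 7 lists of 107 genes, of which 93 were in the table and 88 were tested, the members being in none of them. The list nearest in kind holds 33 other antiviral target genes. Of its 32 genes tested, 31 had a log2 fold change below 0. In edgeR 25 had an unadjusted p-value under 0.05, all 25 lower, and 8 had groups that did not overlap. Over all genes tested, the shares to set beside the counts of each list were 48.5% below 0 and 4.06% lower without overlap. At that p-value they were 12.8% in either direction and 6.81% lower. The 7 lists were written with earlier results of these data known. The median of the antiviral list was -0.13, between the -0.23 of the Ifit genes and the 0.0038 of all genes. The summed level of the list was 6162 to 6676 CPM with the antagonist and 5813 to 6123 CPM with both ligands.

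One antiviral gene was called. Isg15, which encodes a ubiquitin-like modifier, had 344, 364, 382 and 387 CPM with the antagonist and 331, 321, 306 and 286 CPM with both ligands. The groups did not overlap, and Isg15 fell from 369 ± 19.7 CPM (SD, n = 4) to 311 ± 19.5 CPM, a log2 fold change of -0.25 (SE 0.04, edgeR adjusted p = 0.0255). The call was lost when antagonist replicate 2, 3 or 4 or replicate 3 of the dual group was left out (adjusted p 0.0648 to 0.0932), and over all its alternatives the adjusted p-value ran from 9.7e-06 to 0.0932. No other gene of the list was called in edgeR, while DESeq2 called 12 of them in all, Isg15 included. Oas1a, which makes the second messenger for RNase L, was at 85.7 ± 4.24 CPM (SD, n = 4) and 75.9 ± 3.11 CPM (log2 fold change -0.18, SE 0.04), and Oasl1 at 37.7 ± 2.87 and 32.7 ± 3.21 CPM (-0.21, SE 0.06). Mx1, a dynamin-like GTPase against influenza viruses, was at 56.1 ± 4.52 and 50.6 ± 2.31 CPM (-0.15, SE 0.05), and Bst2, a tether of budding virions, at 787 ± 46.6 and 698 ± 54.3 CPM (-0.17, SE 0.05). The gene with a value above 0 was Eif2ak2, the kinase PKR, at 191.5 ± 0.724 and 193 ± 9.77 CPM (0.01, SE 0.04). Apart from Isg15, these examples were picked with their values in view.

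The next list holds 15 targets of interferon-γ, which was added for activation and is listed in the methods as the human protein. Of these, 14 were tested and 0 were called by edgeR and 5 by DESeq2. A log2 fold change below 0 was found for 12, and 8 had an unadjusted p-value under 0.05 in edgeR, all lower. The median was -0.12. Irf1, a transcription factor, was at 134 ± 4.97 CPM (SD, n = 4) and 119 ± 1.86 CPM (-0.17, SE 0.04), and Gbp3, a guanylate-binding protein gene, at 335 ± 12.3 and 300.5 ± 8.38 CPM (-0.16, SE 0.03). The largest value was that of the chemokine gene Cxcl9, at 7.09 ± 0.742 and 5.43 ± 0.586 CPM (-0.39, SE 0.10). Nos2, the inducible nitric oxide synthase gene, was at 176 ± 13.8 and 182 ± 10.4 CPM (0.05, SE 0.05). Several other targets were near the low end of what was counted in both groups. Mean levels were 1.83 and 1.98 CPM for Ciita, 1.76 and 1.48 for H2-Ab1, 0.764 and 0.688 for H2-Aa and 0.574 and 0.537 for H2-Eb1. Ido1, at 0.0479 and 0.0964 CPM, did not pass the low-count filter. These examples too were picked with their values in view.

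The lists of genes upstream of the family had medians closer to 0, though single genes were as far from 0 as Ifit1. In the list of 14 sensors and inducers of interferon, 0 were called by edgeR and 2 by DESeq2 (Dhx58 and Irf7), 9 had a log2 fold change below 0, 5 an unadjusted p-value under 0.05 (3 lower) and the median was -0.04. Irf7, the factor that amplifies interferon production and is itself an interferon target, had 718, 806, 825 and 829.9 CPM with the antagonist and 726, 755, 681 and 652 CPM with both ligands. The groups overlapped through antagonist replicate 1, and the log2 fold change was -0.18 (SE 0.05, adjusted p = 0.114). Irf3, which starts the response, was at 0.08 (SE 0.04, adjusted p = 0.371) and Tlr4, the receptor for LPS, at 0.14 (SE 0.05, adjusted p = 0.268). Of the 16 interferon ligands listed, 3 were in the table and 0 passed the low-count filter. Ifnb1, the gene of interferon-β, had 0 to 3 counts in a library, so a difference was not detectable at this depth.

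Of the 12 genes of the interferon receptors and their JAK-STAT signalling, 0 were called by edgeR and 0 by DESeq2, 1 reached an unadjusted p-value under 0.05, and their median was -0.04. The receptor genes Ifnar1 and Ifnar2 had log2 fold changes of 0.03 (SE 0.03, adjusted p = 0.807) and -0.02 (SE 0.04, adjusted p = 0.883). The kinase genes Jak1 and Tyk2 were at 0.02 (SE 0.03, adjusted p = 0.816) and -0.04 (SE 0.06, adjusted p = 0.831). In the complex that binds the ISRE, the values were -0.05 (SE 0.04, adjusted p = 0.706) for Stat2 and -0.07 (SE 0.04, adjusted p = 0.455) for Irf9.

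In the 7 tested genes of negative feedback, 0 were called by edgeR and 1 by DESeq2 (Usp18), 6 had a log2 fold change below 0, 3 an unadjusted p-value under 0.05 and the median was -0.02. Usp18, which removes Isg15 from proteins and blocks the interferon receptor, came nearest to the threshold. It had 154.5, 167, 162 and 166 CPM with the antagonist and 143, 150.4, 138 and 142 CPM with both ligands, groups that did not overlap, with a log2 fold change of -0.18 (SE 0.04, adjusted p = 0.0532). The 9 genes of cap methylation and translation initiation, the machinery that the Ifit proteins act on, had a median of -0.04, with 0 called by edgeR, 1 by DESeq2 and 1 at an unadjusted p-value under 0.05. That gene in both counts was Eif3c, a subunit of the initiation factor that Ifit proteins bind, at -0.10 (SE 0.03, adjusted p = 0.162). Eif3e, another subunit, was at -0.04 (SE 0.04, adjusted p = 0.714), and Cmtr1, the cap methyltransferase gene, at -0.07 (SE 0.10, adjusted p = 0.843). Over all 7 lists, 1 of 88 genes was called and 75 had a log2 fold change below 0. The number called was 21 in DESeq2, 20 without the low-count filter, 12 without antagonist replicate 1 and 0 without antagonist replicate 2, 3 or 4 or dual replicate 3. Among all genes, 39 were called in the main fit, 381 in DESeq2, 366 without the filter and 172 without antagonist replicate 1.

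**Figure D5:**
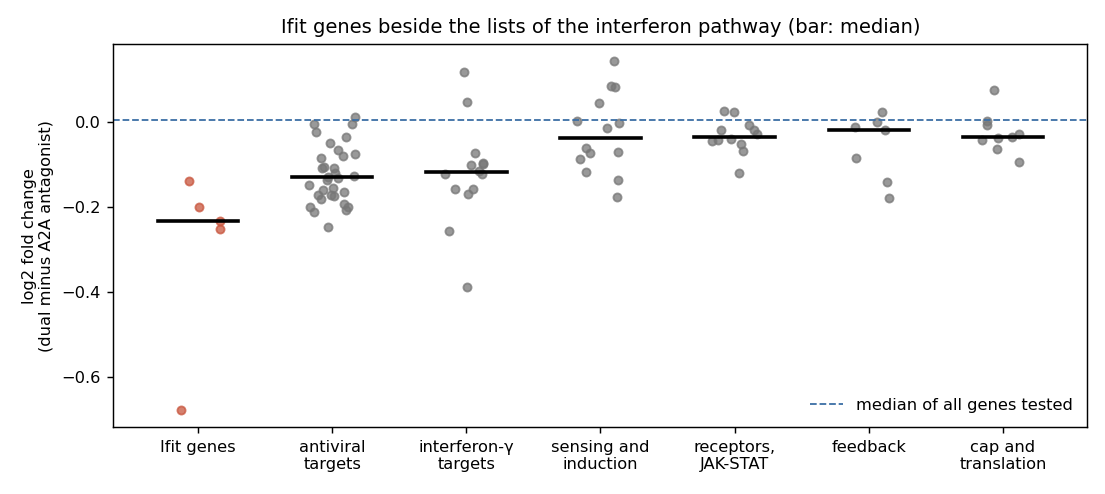
Log2 fold change (dual minus A2A antagonist) of each tested gene of the Ifit family (red) and of the lists of the interferon pathway (grey), with 1 point per gene, the list median as a bar and the median of all genes tested as a dashed line. The medians are -0.23 for the Ifit genes, -0.13 for the antiviral targets, -0.12 for the interferon-γ targets and -0.02 to -0.04 for the other lists.

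The Ifitm genes share the prefix but are a different family, of membrane proteins that restrict the entry of viruses. Ifitm3, much the most abundant, was at 1424 ± 58.7 CPM (SD, n = 4) and 1320 ± 17.4 CPM, with a log2 fold change of -0.11 (SE 0.03, adjusted p = 0.149). Ifitm2 was at 227 ± 21.1 and 196 ± 9.31 CPM, with -0.21 (SE 0.05, adjusted p = 0.0866). The groups of both genes did not overlap, and neither was called in edgeR, while DESeq2 called both. Ifitm1 was at -0.04 (SE 0.06, adjusted p = 0.863), and Ifitm5, Ifitm6, Ifitm7 and Ifitm10 had log2 fold changes of 0.25, 0.04, -0.06 and -0.04, each smaller than its SE.

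Among the cell type markers, 1 was called. C1qa, the complement gene of microglia, fell from 476 ± 29.6 CPM (SD, n = 4) to 403 ± 11.6 CPM, a log2 fold change of -0.24 (SE 0.04, edgeR adjusted p = 0.0240). Leaving out antagonist replicate 2, 3 or 4 or replicate 3 of the dual group ended the call (adjusted p 0.0648 to 0.0932). Of the 10 microglia markers tested 6 had a log2 fold change below 0, and Aif1, a cytoskeletal marker, was the next lowest at -0.21 (SE 0.06, adjusted p = 0.110). Itgam was at 0.04 (SE 0.04), Cx3cr1 at 0.03 (SE 0.06) and Csf1r at 0.11 (SE 0.03). Aif1, Itgam, Cx3cr1 and Csf1r were not called in edgeR, while DESeq2 called Aif1. Among the 10 microglia markers, 1 had groups that did not overlap and were lower in the dual group, C1qa. The groups of 1 other, Csf1r, stood apart in the higher direction, at 211 to 223 CPM with the antagonist and 226 to 244 CPM with both ligands. In the oligodendrocyte list DESeq2 also called Olig1, a transcription factor gene, which edgeR put at -0.14 (SE 0.04, adjusted p = 0.157) and did not call. The median of the microglia markers was -0.02, that of the astrocyte markers 0.02, of the fibroblast markers 0.11 and of the oligodendrocyte markers -0.05. The lymphocyte markers summed to 0.132 to 0.44 CPM and 0.203 to 0.315 CPM, the neuron markers to 9.37 to 11.6 and 9.27 to 10.5 CPM, and the endothelial markers to 36.0 to 46.1 and 37.2 to 45.9 CPM, all with ranges that overlapped.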

How the data were processed

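RNA-seq was measured in 8 libraries of polyadenylated RNA. According to the methods of the study and the submitters' processing notes, the authors aligned paired reads with HISAT2 to the mouse genome (mm10) and counted them per gene with featureCounts 1.5.0-p3; the strand setting and the treatment of reads that fit several genes are not given in the sources used here. The deposited values used are raw counts per gene, without normalization or pooling. The authors' FPKM values (fragments per kilobase, scaled to depth), also deposited, served as an alternative for levels. The deposited tables also hold the authors' own comparisons (log2 fold changes with raw and adjusted p-values), which were not used, and 9 columns of per-sample values of 3 libraries that match no sample of the series, which were not used. Groups were taken from the sample titles.

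The test was that of edgeR 4.0.16 under R 4.3.3 (filterByExpr with a minimum count of 10, TMM factors, quasi-likelihood F test, two-sided, Benjamini-Hochberg over the 18756 genes tested), with no covariate. Called means an adjusted p-value under 0.05. SE was taken as the log2 fold change divided by the root of F. Correlations used log2 CPM with a prior count of 2, for genes whose mean log2 CPM was 1 or more. Alternatives were the DESeq2 1.42.0 Wald test, upper-quartile factors, plain totals, no filter, a mean count of 10 or more, a replicate block and leaving out each library. The fit was tested on simulated data. Pairs of replicates differed by more than sampling noise (chi-square per degree of freedom 3.8 to 9.43), so none was taken as a repeat run of another and each counted as 1. That check cannot tell whether they came from separate cultures. The methods of the study give fewer replicates for ligand-treated cells than the labels, while a figure caption gives the same number as the labels. Precision is limited by 4 libraries per group.

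The members and the lists were chosen with earlier results of these data known. Named are the members, every listed pathway gene that was called, a set of pathway genes given whatever their values (Tlr4, Irf3, Irf7, Ifnb1, Ifnar1, Ifnar2, Jak1, Tyk2, Stat2, Irf9, Usp18, Isg15, Eif3c, Eif3e, Cmtr1), the genes within 250 kb, the 5 with the most similar deviations and other genes whose symbol starts with Ifit. Others are named as picked with their values in view, as are the cell type markers. Some genes of the lists are counted but not reported here by name.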

Additional observations from a re-analysis of the deposited data

Results flagged for a closer look

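Of 79 groups of 4 libraries tested for a single library far from the rest, 4 were marked, and chance marks about 1 group in 20. In the dual group, replicate 3 had the lowest Ifit3b level, 158 CPM where the other 3 had 171 to 174 CPM. Irf9 was lowest in A2A antagonist replicate 1, at 134 CPM where the others had 144 to 145 CPM. Eif3e was highest in dual replicate 4, at 128.5 CPM against 114 to 115 CPM in the others. Gm26902 was highest in A2A antagonist replicate 3, at 2.65 CPM against 1.93 to 1.99 CPM in the others.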

How the results depend on the processing

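The log2 fold changes of the 5 Ifit genes kept their direction in all 14 alternatives, and the family median stayed between -0.26 and -0.21. The counts of calls did not keep their size. Genes called numbered 39 in edgeR, 381 in DESeq2 (107 higher, 274 lower), 366 without the low-count filter (113 higher, 253 lower) and 0 to 172 with 1 library left out: 0 without A2A antagonist replicate 4 or dual replicate 3 (1802 and 2092 at an unadjusted p-value under 0.05), 5 and 6 without antagonist replicates 2 and 3, and 172 without antagonist replicate 1. Ifit genes called numbered 2, 4 in DESeq2 (Ifit1bl1 had no adjusted p-value there), 5 without the filter and 0 to 3 with 1 library left out. Interferon pathway genes called numbered 1, 21 in DESeq2, 20 without the filter and 0 to 12 with 1 library left out. The cause was not tested. The replicate numbers did not pair the libraries: same-numbered libraries correlated at -0.137 to -0.0436 in their deviations and 0 of 4 correlated best with their own number. With a replicate block 17 genes, 1 Ifit gene (Ifit3b) and 0 pathway genes were called. With 1 library left out, the log2 fold change of 12 genes near 0 took either sign: Ch25h (-0.011 to 0.038), N4bp1 (-0.0060 to 0.020), Ifitm6 (-0.016 to 0.10), Slc16a12 (-0.093 to 0.26), Smpd4 (-0.020 to 0.022, and -0.0017 without the filter), Fas (-0.013 to 0.052), Ifitm5 (-0.010 to 0.68), Ifnar2 (-0.055 to 0.0030), Tyk2 (-0.085 to 0.012), Gm26902 (-0.17 to 0.021), Ifitm1 (-0.096 to 0.022) and Ifitm7 (-0.13 to 0.0043). Levels per kilobase moved by less than 1 SD with plain totals or the authors' FPKM. Depth limits Ifit1bl1, Mir107 and Ifnb1, and the near-identical Ifit3 and Ifit3b cannot be counted apart with certainty.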
